A study of Mus musculus with 7 samples.

Results

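The genes described here are 8 transcription factors that steer blood progenitors toward granulocytes, monocytes and dendritic cells: Spi1, Irf8, Cebpa, Cebpb, Cebpd, Cebpe, Gfi1 and Zeb2. They were chosen by name as factors of myeloid fate, with earlier results of these data known. They are 8 of the 34932 genes to which the deposited transcripts could be summed. The libraries were bulk RNA-seq of long-term haematopoietic stem cells (LT-HSC), rare marrow cells able to renew the whole blood system over a lifetime. According to the labels, these were sorted from marrow of tibia and femur as negative for lineage markers and CD48, and positive for Sca-1, c-Kit and CD150. The first group was 4 libraries of B4galt1 knockout mice (KO; genotype given as B4-/- on 129S1/C57Bl/6, a full knockout) and the second was 3 libraries of wild-type mice (WT), labelled with the 129S1/C57Bl/6 background alone. The B4galt1 enzyme transfers galactose onto the sugar chains of glycoproteins. The labels give no treatment, age or sex and do not say that the replicates were separate animals. P-values therefore cover the spread among libraries alone, part of which may be technical. Y-linked expression, given below, differed within each group, so the libraries of a group did not all come from the same mouse. Values by library are given in the order of the replicate numbers, KO 1 to 4 and WT 1 to 3. The comparison asks whether the factors, the genes they are known to control, or both differed between KO and WT stem cells.

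PU.1, the product of Spi1, is an ETS-family factor needed for all myeloid lineages and for early lymphoid cells; low levels are present in stem cells and higher levels accompany monocyte and granulocyte fate. C/EBP alpha, from Cebpa, drives the step to granulocyte and monocyte progenitors, and C/EBP epsilon acts later, on the secondary granule genes of neutrophils. Stem and progenitor cells are known to carry low levels of lineage factors before commitment, a state called priming, while granule proteins and other effector genes are expressed strongly only in committed cells.

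Each library held 23508985 to 34941390 estimated reads. B4galt1, the targeted gene, did not separate the groups, with 19.3, 14.9, 14.8 and 14.6 counts scaled to library size (CPM) in KO replicates 1 to 4, against 19.2, 24.4 and 11.3 CPM in WT replicates 1 to 3 (log2 fold change -0.20, SE 0.270, edgeR adjusted p = 0.758). Each direction below therefore rests on the labels. Of 10 LT-HSC markers, all 10 were measured and 0 passed with edgeR. At an unadjusted p below 0.05, 4 were lower, and DESeq2 and limma voom each called 2 lower. Over all 14695 genes tested, 2151 had an unadjusted p below 0.05 in either direction. DESeq2 called 514 genes lower and limma voom 439. The summed level of the LT-HSC markers was 1006 to 1191 CPM in KO libraries and 1247 to 1506 CPM in WT libraries. The marker Cd48, against which the cells were sorted, was at 105.3, 126.0, 141.8 and 129.7 CPM in KO libraries and at 25.2, 14.0 and 32.3 CPM in WT libraries (log2 fold change 2.40, SE 0.269, edgeR adjusted p = 0.000804). Mast cell and basophil markers summed to 1225, 514.7, 1233 and 341.4 CPM in KO libraries and to 300.8, 12.8 and 13.5 CPM in WT libraries, with 1 of 5 tested higher (Fcer1a, log2 fold change 2.81, edgeR adjusted p = 0.0328) and Tpsb2 at 0 in every library. Over all genes tested, 0.599% were called higher. Megakaryocyte and platelet markers summed to 958.9 to 1870 CPM in KO libraries and 4991 to 11510 CPM in WT libraries.

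None of the factors passed the test. The test was edgeR's quasi-likelihood test over all genes, at a Benjamini-Hochberg adjusted p below 0.05, and 7 of the 8 factors had enough reads to enter it. Across all 14695 genes tested, 2.26% passed (332 genes, with 2151 at an unadjusted p below 0.05), so a count of 0 among 7 is near the background. At an unadjusted p below 0.05 stood Spi1 and Cebpa, both higher in KO libraries. With other tools 1 factor passed, Cebpa, both in DESeq2 and in limma voom. These tools also called more genes in all, 352 higher and 514 lower with DESeq2 and 269 and 439 with limma voom. The median log2 fold change (KO minus WT) of the 7 factors was 0.08, beside 0.03 over all genes tested. The groups did not overlap for 2 of the 7, Cebpa with all KO libraries above and Cebpb with all KO libraries below, and 15.7% of all tested genes showed groups that do not overlap. In bulk RNA, fewer cells of a type and less RNA per cell cannot be told apart, for the factors and for every gene below.

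**Figure D1:**
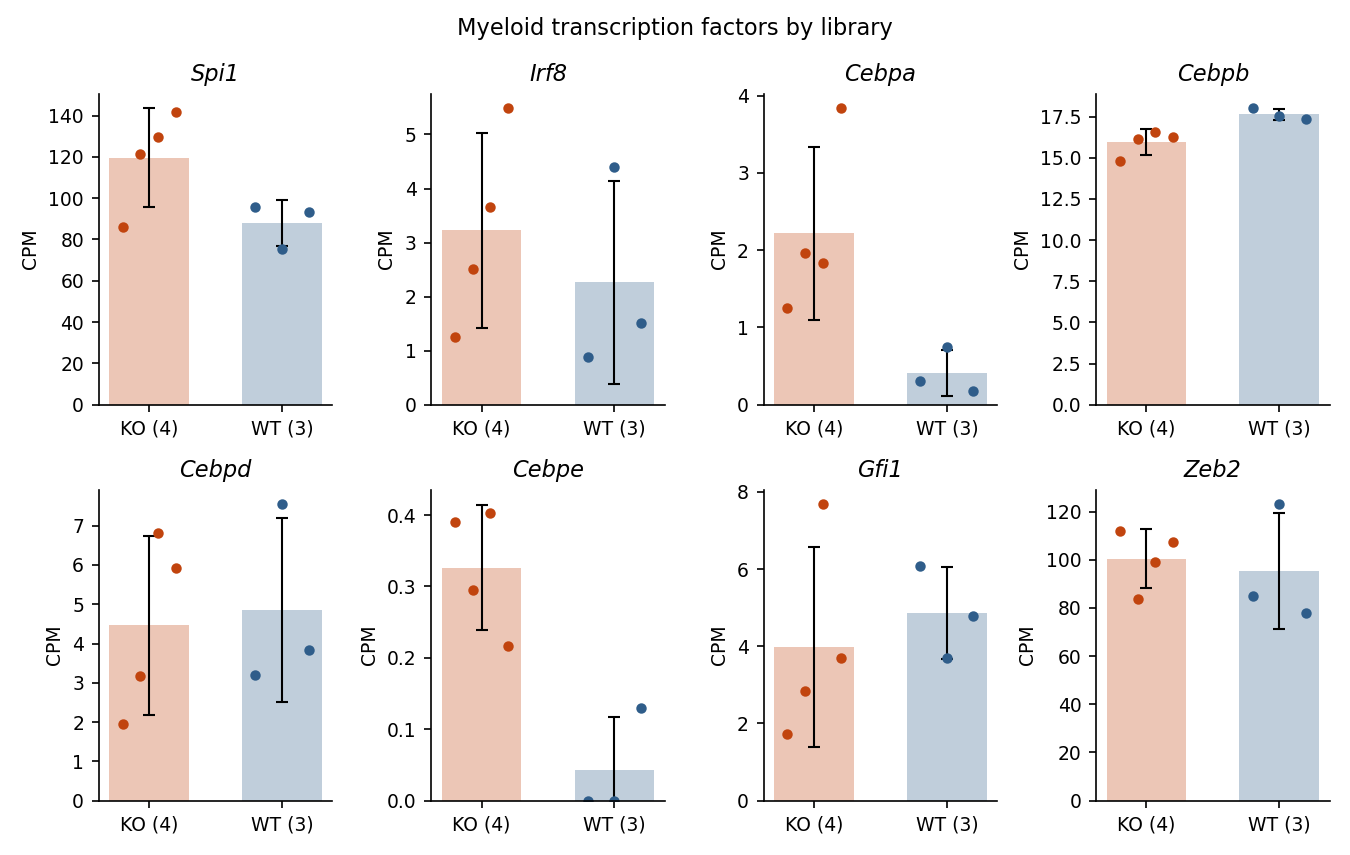
Level of each of the 8 factors in CPM (linear axis from 0), with the 4 KO libraries on the left and the 3 WT libraries on the right of each panel. Points are libraries, bars the group mean and error bars the SD. Cebpa and Cebpe lie higher in every KO library than in any WT library, Cebpb lies at 14.8 to 16.6 CPM in KO libraries and 17.4 to 18.0 CPM in WT libraries, and the other 5 factors overlap.

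Among the regulators of the PU.1 axis, Spi1 (ENSMUSG00000002111, GRCm38 chromosome 2, 91082390 to 91115756, plus strand) had the highest mean TPM of the factors in both groups, though not the highest mean CPM in WT libraries, where that of Zeb2 was higher. It had 85.8, 121.2, 129.6 and 141.5 CPM in the KO libraries and 95.7, 75.2 and 93.2 CPM in the WT libraries. KO replicate 1 lay below 2 of the WT libraries and the other 3 KO libraries lay above all of them. The means were 119.5 ± 24.0 CPM in KO (SD, n = 4) and 88.0 ± 11.2 CPM in WT (SD, n = 3). The log2 fold change of 0.44 (SE 0.193, 95% interval 0.01 to 0.87) did not pass (edgeR adjusted p = 0.327), and over 18 alternative settings it stayed between 0.31 and 0.63 with adjusted p of 0.177 to 0.665. The longest coding transcript of 2034 nt carried most Spi1 reads in both groups, 91.5 ± 1.09% in KO and 90.6 ± 0.353% in WT (SD; exact permutation p = 0.114, two-sided), a difference of 0.851 percentage points.

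Irf8 (chromosome 8, 120736358 to 120756694, plus strand) encodes the interferon regulatory factor that partners PU.1 in monocyte and dendritic cell fate. It was sparse and variable, with 1.25, 2.51, 3.66 and 5.48 CPM in KO libraries and 0.883, 4.40 and 1.51 CPM in WT libraries. WT replicate 2 was higher than 3 of the 4 KO libraries, and the groups overlapped over most of their range. The log2 fold change of 0.52 (SE 0.634, edgeR adjusted p = 0.734) has a 95% interval of -0.88 to 1.92, wide enough to hold a change of more than 2-fold upward, and it turned to -0.06 in the 5 libraries with high Y-linked expression (KO replicates 1 to 3 and WT replicates 1 and 2, with 255.7 to 364.6 CPM over 4 Y-linked genes, where KO replicate 4 had 10.9 CPM and WT replicate 3 had 6.04 CPM).

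Cebpa (chromosome 7, 35119293 to 35121928, plus strand) showed the largest difference among the factors tested. It carried 32, 53, 50 and 142 reads in the KO libraries and 9, 16 and 4 reads in the WT libraries. Scaled to library size, that is 1.25, 1.96, 1.83 and 3.84 CPM in KO libraries and 0.306, 0.750 and 0.173 CPM in WT libraries. The lowest KO library was above the highest WT library, and KO replicate 4 alone held about as many reads as the other 3 KO libraries together. The log2 fold change was 2.44 (SE 0.666, 95% interval 0.97 to 3.92), a 5.44-fold difference on a gene at the edge of detection, and it missed the threshold (edgeR adjusted p = 0.104). DESeq2 gave 2.44 with an adjusted p of 0.0112, and limma voom 2.65 with an adjusted p of 0.0303. Over all 18 alternatives Cebpa stayed higher in KO libraries, by 1.70 to 3.15 on the log2 scale, with adjusted p of 0.0112 to 0.351. The lowest of these values came from the 5 libraries with high Y-linked expression, which leave out KO replicate 4. The gene is annotated with an antisense neighbour, Gm45091, over 51 of its 2636 exonic bases, and the library kit does not mark strand.

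Cebpe (chromosome 14, 54710360 to 54712174, minus strand), the factor of late neutrophil maturation, was almost silent. It had 10, 8, 11 and 8 reads in the KO libraries, while WT replicates 1 and 2 had 0 reads and WT replicate 3 had 3. All 4 KO libraries were above all 3 WT libraries, at 0.216 to 0.402 CPM in KO and at most 0.129 CPM in WT. The summed reads, 37 in KO and 3 in WT, give a ratio of 7.80 after scaling to library size, with a 95% interval of 2.47 to 39.5 that covers counting error only. It did not pass the filter on low counts and so was not in the main test; with no filter it stood at 2.81 on the log2 scale (SE 1.26, edgeR adjusted p = 0.385).

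Cebpb (chromosome 2, 167688915 to 167690418, plus strand), a single-exon gene for the C/EBP factor of emergency granulopoiesis and macrophages, was the steadiest member. Its levels were 14.8, 16.2, 16.6 and 16.3 CPM in KO libraries and 18.0, 17.5 and 17.4 CPM in WT libraries. Every KO library was below every WT library, but by little: the means were 16.0 ± 0.768 CPM in KO (SD, n = 4) and 17.6 ± 0.329 CPM in WT (SD, n = 3). The log2 fold change of -0.14 (SE 0.184, edgeR adjusted p = 0.746) has a 95% interval of -0.55 to 0.26. Per length, in TPM, the groups overlapped, with 23.4 to 33.4 in KO libraries and 24.3 to 31.3 in WT libraries. Cebpb shares 312 of its 1504 exonic bases with Tmem189 on the other strand, so part of its reads may belong to that gene.

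Cebpd (chromosome 16, 15887286 to 15891031, plus strand), an inflammation-responsive member of the family, had 1.95, 3.18, 6.80 and 5.92 CPM in KO libraries and 3.19, 7.54 and 3.84 CPM in WT libraries. The ranges were nearly the same in both groups. Its log2 fold change of -0.12 (SE 0.484, edgeR adjusted p = 0.928) changed sign when single libraries were left out, with 0.32 without WT replicate 2 at the upper end. Over 562 of its 3746 exonic bases Cebpd overlaps Spidr on the other strand. Within the family, the 2 members at the lowest levels, Cebpa and Cebpe, were higher in all KO libraries, and Cebpb was lower in all of them. Groups that do not overlap were seen in 15.7% of all tested genes. Cebpb and Cebpd differed by less than 0.2 on the log2 scale. None of these members passed with edgeR, and Cebpe was not in the main test.

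Gfi1 (chromosome 5, 107716657 to 107726036, minus strand) encodes a zinc-finger repressor that favours neutrophil over monocyte fate and restrains stem cell cycling. It had 1.72, 2.85, 7.68 and 3.70 CPM in KO libraries and 6.08, 3.70 and 4.79 CPM in WT libraries. KO replicate 3 held the highest level and KO replicate 1 the lowest, so the KO range held the whole WT range. Between the groups Gfi1 stood at -0.29 on the log2 scale (SE 0.481, 95% interval -1.35 to 0.78, edgeR adjusted p = 0.812). Of 9 genes that Gfi1 is known to repress, 8 were tested, 0 passed with edgeR and 4 lay on each side of 0, with a median of -0.03. At an unadjusted p below 0.05 stood 1 of them, Cdkn1a, which passed with DESeq2 and with limma voom. Over all 14695 genes tested, 2151 had an unadjusted p below 0.05. DESeq2 called 352 genes higher and limma voom 269. The smallest p among them belonged to Cdkn1a, a cell cycle inhibitor, at 1.95 (edgeR adjusted p = 0.0804); Egr1 was at 0.97 (adjusted p = 0.478) and Id1 at 0.67 (adjusted p = 0.622).

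Zeb2 (chromosome 2, 44983632 to 45117395, minus strand), a zinc-finger and homeodomain repressor that acts in stem cell differentiation and in monocyte and dendritic lineages, came after Spi1 in mean TPM in both groups. It had 111.8, 83.9, 98.9 and 107.4 CPM in KO libraries and 84.8, 123.0 and 78.0 CPM in WT libraries. The groups overlapped, and the log2 fold change of 0.08 (SE 0.191, edgeR adjusted p = 0.876, 95% interval -0.35 to 0.50) changed sign in 4 of the 18 alternatives. In TPM, which divides by transcript length, the same gene had 53.9, 38.3, 48.5 and 56.7 in KO libraries and 34.0, 36.7 and 28.8 in WT libraries. There the groups did not overlap, which the counts had not shown, and the transcripts behind the gene were therefore examined, a choice made after these values were seen. With an offset for transcript length, edgeR gave 0.30 (adjusted p = 0.472). Such a gap between scales was not particular to Zeb2. Runx1, at 0.05 in counts, had 35.8 to 75.1 TPM in KO libraries and 25.8 to 30.9 TPM in WT libraries. Etv6, at -0.13 in counts, also had groups apart in TPM. How many genes did so was not counted.

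Of the 29 annotated Zeb2 transcripts, 17 are protein-coding and 3 are annotated with a retained intron. Retained-intron transcripts took 27.6, 32.6, 39.1 and 36.7% of the Zeb2 reads in the KO libraries and 17.2, 12.1 and 17.0% in the WT libraries. All KO libraries lay above all WT libraries, with means of 34.0 ± 5.04% in KO (SD, n = 4) and 15.5 ± 2.88% in WT (SD, n = 3). The difference of 18.5 percentage points has a two-sided exact permutation p of 0.0571, the smallest that 4 against 3 libraries allow. Adjusted over the 3 shares for which a p is given here, that p is 0.0857. Zeb2 was examined because TPM, which depends on transcript length, separated the groups where counts had not. This p is therefore not an independent test, and the adjustment does not cover that choice. The share of the longest coding transcript, of 9124 nt, was 28.5 ± 3.41% in KO and 47.8 ± 2.89% in WT. In CPM the retained-intron transcripts had 30.9, 27.4, 38.7 and 39.4 in KO libraries and 14.6, 14.9 and 13.3 in WT libraries, while the coding transcripts had 69.2, 50.4, 52.9 and 60.9 CPM in KO libraries and 64.9, 102.8 and 59.9 CPM in WT libraries. The coding transcripts overlapped between the groups, with WT replicate 2 far above the rest.

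The whole libraries moved the same way at a smaller scale. Retained-intron transcripts of all genes took 5.01, 4.49, 4.81 and 5.23% of all reads in KO libraries and 3.73, 4.05 and 3.69% in WT libraries (4.89 ± 0.317% in KO and 3.82 ± 0.194% in WT, SD, n = 4 and 3, two-sided exact permutation p = 0.0571). Their part in the Zeb2 shares was not tested. Reads that match several transcripts of a gene were apportioned by Salmon, so these shares are estimates. An antisense gene, Zeb2os, overlaps 653 of the 19942 exonic bases of Zeb2, and its reads cannot be told apart by strand.

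**Figure D2:**
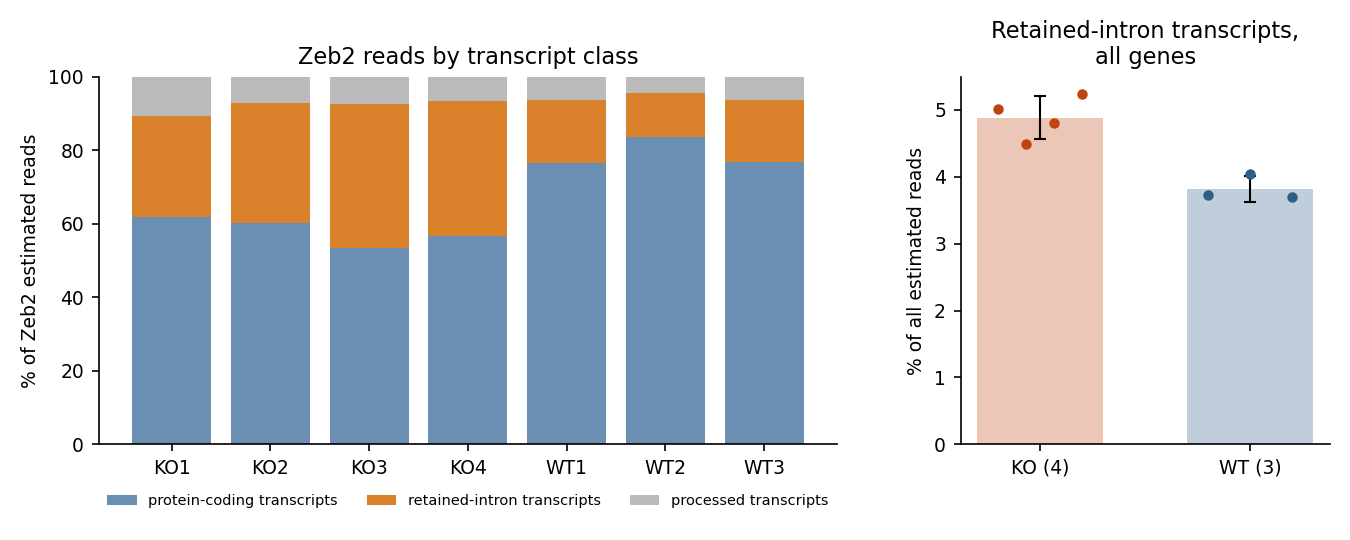
Left, the share (%) of Zeb2 estimated reads in protein-coding, retained-intron and processed transcripts, as stacked bars for KO1 to KO4 and WT1 to WT3. Right, the share (%) of all estimated reads in retained-intron transcripts, with points for libraries, bars for group means and error bars for the SD. The retained-intron share of Zeb2 is 27.6 to 39.1% in KO libraries and 12.1 to 17.2% in WT libraries.

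Placed on a common scale per transcript length, the factors formed the same broad order in both groups. In KO libraries the mean TPM was 104.8 for Spi1, 49.4 for Zeb2 and 27.6 for Cebpb, each step larger than the spread over libraries, and then 2.13 for Gfi1, 1.98 for Irf8, 1.48 for Cebpd and 1.44 for Cebpa, which overlapped their neighbours, with Cebpe last at 0.431. In WT libraries it was 67.4 for Spi1, then 33.2 for Zeb2 and 28.2 for Cebpb, which overlapped, and 2.28 for Gfi1, 1.31 for Cebpd, 0.804 for Irf8, 0.230 for Cebpa and 0.0571 for Cebpe, each overlapping the next. Spi1, Zeb2 and Cebpb thus stood apart from the other 5 factors in both groups. The summed TPM of the 8 factors was 151.6, 168.0, 190.7 and 246.3 in KO libraries and 142.0, 116.3 and 142.2 in WT libraries, so every KO library was above every WT library. These TPM were used as deposited, without rescaling between libraries. Runx1 and Etv6, which did not pass, also had higher TPM in every KO library. In CPM the same sum was 219.0, 232.0, 265.4 and 284.3 in KO libraries and 209.0, 232.2 and 199.0 in WT libraries, and the groups overlapped, with WT replicate 2 above 2 of the KO libraries. Spi1 alone made up 46.7 to 58.9% of the TPM sum in KO libraries and 43.0 to 54.6% in WT libraries.

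For each factor tested, the protein-coding gene with the most similar profile over the 7 libraries was looked up among 11285 others (11286 for Cebpa), by the root mean square difference of centred log2 CPM. For Spi1 it was Cd27, a progenitor surface marker of the TNF receptor family, at a difference of 0.0574 beside a spread of 0.312 of Spi1 itself. Cd27 had 100.7, 134.6, 154.6 and 160.9 CPM in KO libraries and 105.7, 90.2 and 115.7 CPM in WT libraries, so the same KO library, replicate 1, was the low one. Zeb2 was nearest to Apc (0.0604, own spread 0.227) and Cebpb to Rab14 (0.0495, own spread 0.0865). The 4 sparser factors had larger differences from their partners, and larger spreads of their own. These were Gfi1 with Pqlc2 (0.227, own spread 0.648) and Cebpd with Suox (0.269, own spread 0.642). The others were Irf8 with Ccdc102a (0.371, own spread 0.891) and Cebpa with BC035044 (0.538, own spread 1.31). With so many genes and 7 libraries close profiles are frequent, and these are descriptions only.

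Among 17 partners and regulators of the C/EBP family, 0 passed with edgeR and the median was -0.05; 1 had an unadjusted p below 0.05, Trib3, which passed with DESeq2, and 0 passed with limma voom. Trib3, a pseudokinase of the family whose members Trib1 and Trib2 promote C/EBP alpha degradation, had the smallest p, at -1.20 (edgeR adjusted p = 0.104). It was followed by Stat3, which carries cytokine signals to the nucleus, at 0.60 (adjusted p = 0.359), the retinoid receptor Rxra at -0.98 (adjusted p = 0.406) and Cebpz at 0.26 (adjusted p = 0.441). Of 9 factors of the megakaryocyte and erythroid branches, which are set against PU.1 in models of lineage choice, 0 passed with edgeR and the median was -0.04; 2 had an unadjusted p below 0.05, Fli1 and Klf1, of which Fli1 passed with DESeq2, and 0 passed with limma voom. Their named members were Fli1 at -0.48 (edgeR adjusted p = 0.132), Klf1 at 1.26 (adjusted p = 0.336), Tal1 at -0.51 (adjusted p = 0.358) and Gata1, the direct antagonist of PU.1, at 0.40 (adjusted p = 0.515). Over all 14695 genes tested, 2151 had an unadjusted p below 0.05, and DESeq2 called 352 higher and 514 lower. Of the 10 megakaryocyte and platelet markers, 9 fell, where 1.66% of all tested genes were called lower in KO libraries. Markers and factors were not tested against each other.

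Among 23 other factors of the PU.1, interferon regulatory and monocyte group, 18 were tested, 1 rose and the median was 0.27, where 0.599% of all tested genes were called higher. The gene that rose was Jun, a partner of PU.1 and of C/EBP proteins and an immediate early gene. It had 44.3, 29.5, 96.1 and 200.8 CPM in KO libraries and 9.48, 11.9 and 11.0 CPM in WT libraries, a log2 fold change of 3.11 (SE 0.590, edgeR adjusted p = 0.0218). The KO libraries differed among themselves by more than 6-fold, and the call was lost without WT replicate 1, 2 or 3, at edgeR adjusted p of 0.0911 to 0.1098. Fos, its dimer partner, was at 4.98 (SE 1.25, edgeR adjusted p = 0.0772), with 10.9, 1.96, 26.4 and 138.1 CPM in KO libraries and 0.781, 1.59 and 1.90 CPM in WT libraries. Zeb1, the close relative of Zeb2, was higher in all KO libraries at 0.65 (edgeR adjusted p = 0.124), and Irf7, of the interferon response, at 0.96 (adjusted p = 0.207).

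Receptors for myeloid cytokines lay above 0 more often than below. All 9 genes of the list were tested, 1 rose and 7 lay above 0, with a median of 0.56 beside 0.03 over all genes. Over all 14695 genes tested, 0.599% were called higher and 7740 lay above 0. Csf2rb, the shared signalling chain of the IL-3, IL-5 and GM-CSF receptors, had 16.1, 25.2, 35.2 and 47.8 CPM in KO libraries and 4.99, 11.5 and 10.4 CPM in WT libraries. The groups did not overlap, and the log2 fold change stood at 1.80 (SE 0.402, edgeR adjusted p = 0.0480). That call was lost without any 1 of KO replicates 2, 3 and 4 and WT replicates 1, 2 and 3, at adjusted p of 0.0598 to 0.159, and kept without KO replicate 1 (adjusted p = 0.0164). Flt3, the receptor of early multipotent progenitors, was at 1.15 (edgeR adjusted p = 0.124), Csf3r, the G-CSF receptor and a known target of C/EBP alpha, at 1.06 (adjusted p = 0.197) and Csf2rb2, a near copy of Csf2rb, at 1.00 (adjusted p = 0.337). Reads of Csf2rb and Csf2rb2 can be exchanged because the sequences are close. Progenitor markers moved alongside: 1 of 6 multipotent progenitor markers rose, Cd48, and the 6 summed to 463.7 to 861.5 CPM in KO libraries and 242.7 to 358.4 CPM in WT libraries.

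The effector genes were gathered in 3 lists, of primary granule genes, neutrophil maturation genes and monocyte and dendritic genes, 54 in all. Of these 53 were in the files and 41 were tested; 4 rose, Plac8, Ms4a3, Tyrobp and Ms4a6c, and 2 fell, F13a1 and S100a9. The median log2 fold change was 0.41, with 27 genes above 0 and 14 below, beside 0.03 over all genes tested. The 4 higher calls of 41 stand beside 0.599% of all genes called higher, and the 2 lower calls beside 1.66% called lower. The lists were chosen with earlier results of these data known, so these shares are descriptions only. Without KO replicate 2, KO replicate 3, WT replicate 2 or WT replicate 3 the higher calls numbered 2, 2, 2 and 1, and without KO replicate 1, KO replicate 2, WT replicate 2 or WT replicate 3 the lower calls numbered 1 each. Plac8 and F13a1 kept their calls in all 18 alternatives.

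Matches to the binding motifs of these factors were counted in the promoters of the effector genes that passed. Promoter sequences are those of RefSeq on GRCm38.p6, from 250 bases before to 50 bases after a start. They were found for 5 of the 6 genes, of which the first listed start is shown; Tyrobp had no entry. Lower case is plain sequence and capitals mark matches, on either strand, to TTGCNNAA (the C/EBP core), GAGGAA (PU.1), AAATCA (Gfi1) or CACCTG (the E-box of ZEB proteins). They are shown because these are the effector genes in which the groups differed.
Plac8, chr5:100572156-100572455, minus strand: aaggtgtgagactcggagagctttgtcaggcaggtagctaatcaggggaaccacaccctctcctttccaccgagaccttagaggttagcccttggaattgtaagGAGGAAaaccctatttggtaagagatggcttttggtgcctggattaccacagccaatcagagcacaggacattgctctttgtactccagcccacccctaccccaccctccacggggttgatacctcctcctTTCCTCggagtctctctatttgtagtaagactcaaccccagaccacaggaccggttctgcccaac
Ms4a3, chr19:11640802-11641101, minus strand: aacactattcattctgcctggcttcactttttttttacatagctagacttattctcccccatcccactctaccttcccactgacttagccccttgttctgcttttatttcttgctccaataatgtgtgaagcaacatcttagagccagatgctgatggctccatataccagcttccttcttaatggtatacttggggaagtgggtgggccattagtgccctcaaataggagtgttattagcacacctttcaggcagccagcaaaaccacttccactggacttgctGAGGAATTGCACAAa
Ms4a6c, chr19:11469118-11469417, plus strand: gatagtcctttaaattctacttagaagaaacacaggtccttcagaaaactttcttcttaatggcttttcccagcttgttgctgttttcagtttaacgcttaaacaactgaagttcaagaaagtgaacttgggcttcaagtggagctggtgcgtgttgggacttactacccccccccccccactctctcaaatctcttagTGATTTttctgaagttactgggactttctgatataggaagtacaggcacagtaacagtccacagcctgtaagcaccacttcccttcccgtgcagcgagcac
S100a9, chr3:90695672-90695971, minus strand: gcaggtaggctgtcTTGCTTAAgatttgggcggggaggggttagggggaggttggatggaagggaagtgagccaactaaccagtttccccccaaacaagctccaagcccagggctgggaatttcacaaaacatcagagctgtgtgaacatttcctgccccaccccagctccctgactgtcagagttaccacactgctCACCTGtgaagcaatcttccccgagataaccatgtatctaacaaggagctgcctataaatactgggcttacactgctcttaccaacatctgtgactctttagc
F13a1, chr13:37050195-37050494, minus strand: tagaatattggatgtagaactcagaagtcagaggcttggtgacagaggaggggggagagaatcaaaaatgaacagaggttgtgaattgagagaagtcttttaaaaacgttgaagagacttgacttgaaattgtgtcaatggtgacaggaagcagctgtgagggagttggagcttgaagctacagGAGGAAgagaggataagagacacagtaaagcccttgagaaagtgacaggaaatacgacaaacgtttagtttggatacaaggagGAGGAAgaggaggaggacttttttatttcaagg

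In Plac8 the GAGGAA match lies 146 and again 15 bases before the start, and a further start of the gene has a C/EBP match 12 bases before it. In Ms4a3 a PU.1 match and a C/EBP match adjoin, 35 and 41 bases after the start. S100a9 has a C/EBP match 236 bases before the start and an E-box 53 bases before it. F13a1 has PU.1 matches 66 bases before and 17 bases after the start, and Ms4a6c only a Gfi1 match, 51 bases before. Such letters are frequent: over 32817 promoters of this length, 10.8% held the C/EBP core, 28.3% the PU.1 letters, 14.0% the Gfi1 letters and 20.2% the E-box, and no match overlapped another motif here. Genes that rose and genes that fell both carried C/EBP and PU.1 matches. Among the factors, the first listed Zeb2 start held C/EBP and PU.1 matches 221 and 118 bases before it and its other 3 starts a PU.1 match each, the first listed Gfi1 start a C/EBP match 143 bases and an E-box 42 bases before it, and both Irf8 starts a Gfi1 match, 175 and 226 bases before them, the second also an E-box 205 bases before it. The promoters of Cebpa and Cebpb held none of these letters in this window, and Spi1, Cebpd and Cebpe had no entry and were not searched.

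The list of primary granule genes, which holds granule enzymes of promyelocytes and other genes of early granulocyte and monocyte progenitors, had the highest median of the effector lists. The genes that passed, Plac8 and Ms4a3, do not encode granule enzymes, and the enzymes Mpo, Elane, Prtn3 and Ctsg did not pass (edgeR adjusted p = 0.0509, 0.734, 0.135 and 0.328). Of 12 tested, 2 rose, 0 fell and 10 lay above 0, with a median of 0.79. At an unadjusted p below 0.05, 8 were higher and 0 lower, and 5 were higher and 0 lower with DESeq2 and with limma voom. Over all 14695 genes tested, edgeR called 0.599% higher, and 2151 had an unadjusted p below 0.05 in either direction. DESeq2 called 352 genes higher and limma voom 269. Plac8, a cysteine-rich protein of granulocytes and progenitors, had 458.4, 614.8, 600.5 and 560.0 CPM in KO libraries and 88.6, 69.9 and 102.6 CPM in WT libraries. The KO libraries lay within 1.5-fold of each other and far above WT, at a log2 fold change of 2.68 (SE 0.197, edgeR adjusted p = 4.31e-05). Ms4a3, a membrane protein of granulocyte-monocyte progenitors, had 22.5, 22.8, 24.9 and 11.6 CPM in KO libraries and 6.39, 8.11 and 4.35 CPM in WT libraries, at 1.70 (SE 0.327, edgeR adjusted p = 0.0232). Its call was lost without KO replicate 1, 2 or 3 and without WT replicate 1 or 3, at adjusted p of 0.0502 to 0.0948.

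Mpo, the myeloperoxidase of primary granules, had 21.8, 33.3, 28.1 and 74.8 CPM in KO libraries and 13.6, 3.56 and 3.97 CPM in WT libraries. All KO libraries were above all WT libraries, with KO replicate 4 the highest as it was for Cebpa, and the log2 fold change of 2.48 (SE 0.564) just missed the threshold (edgeR adjusted p = 0.0509). In 10 of the 18 alternatives it passed, with adjusted p from 3.18e-05 to 0.182 over all of them. Prtn3, the granule protease proteinase 3, was abundant, at 80.8 to 147.4 CPM in KO libraries and 64.7 to 83.3 CPM in WT libraries, with 0.72 (SE 0.212, edgeR adjusted p = 0.135). Elane, neutrophil elastase, which like Prtn3 and Mpo marks promyelocytes, was nearly absent in both groups, at 0.429, 0.739, 0.622 and 0.189 CPM in KO libraries and 1.70, 0.281 and 0.302 CPM in WT libraries (edgeR adjusted p = 0.734); it was chosen after its values were seen.

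Neutrophil maturation genes, the territory of C/EBP epsilon, included 1 that fell. Of 21 genes 12 had enough reads to test, 0 rose with edgeR and 1 fell, with a median of 0.21. At an unadjusted p below 0.05, 3 were higher and 4 lower. With DESeq2 1 gene was higher, Cxcr2, and 0 with limma voom, while 3 were lower with DESeq2 and 4 with limma voom. Over all 14695 genes tested, edgeR called 0.599% higher and 1.66% lower, and 2151 had an unadjusted p below 0.05. DESeq2 called 352 genes higher and 514 lower, and limma voom 269 and 439. S100a9, a calcium-binding alarmin of mature neutrophils, had 0.585, 0.813, 0.987 and 0.648 CPM in KO libraries and 1.97, 3.42 and 5.30 CPM in WT libraries (log2 fold change -2.23, SE 0.480, edgeR adjusted p = 0.0404). Its call held without WT replicate 1 and was lost without any other library, at adjusted p of 0.0624 to 0.163. Its dimer partner S100a8 was at -2.55 (edgeR adjusted p = 0.0666), and Ngp, a secondary granule protein and known target of C/EBP epsilon, at -3.72 (adjusted p = 0.0922), with no KO library above 0.512 CPM. Cxcr2, the chemokine receptor of neutrophils, was at 1.07 (edgeR adjusted p = 0.111), with 6.03 to 7.69 CPM in KO libraries and 2.91 to 4.05 CPM in WT libraries. Markers of mature granulocytes and monocytes stood at 463.4 to 584.4 CPM summed in KO libraries and 669.0 to 806.8 CPM in WT libraries, almost all of it Lyz2, the lysozyme of monocytes and neutrophils, with Ly6g at 0 in every library. Their part in the lower S100a9 was not tested.

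Monocyte and dendritic genes moved both ways. Of 21 listed and 17 tested, 2 rose and 1 fell, and the median was 0.10. Over all genes tested, 0.599% were called higher and 1.66% lower. Tyrobp, the signalling adaptor DAP12 of myeloid and natural killer receptors, had 42.5, 32.5, 49.8 and 21.1 CPM in KO libraries and 13.3, 9.42 and 6.64 CPM in WT libraries, with 1.90 (SE 0.336, edgeR adjusted p = 0.0148). Without WT replicate 2 or 3 its call was lost (adjusted p = 0.0765 and 0.0671). Ms4a6c, a membrane protein of monocytes, had 22.7, 21.5, 31.8 and 15.5 CPM in KO libraries and 8.32, 10.5 and 11.0 CPM in WT libraries, with 1.20 (SE 0.269, edgeR adjusted p = 0.0485), a call that stood at the threshold and was lost without any library except KO replicate 4, at adjusted p of 0.0900 to 0.193. Fcgr3, an IgG receptor of monocytes, mast cells and granulocytes, was at 2.37 (SE 0.655, edgeR adjusted p = 0.108).

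F13a1, the catalytic subunit of clotting factor XIII, which is made by monocytes and by megakaryocytes and platelets, showed the largest difference of the effector lists. It had 0.312, 0.665, 0.402 and 0.270 CPM in KO libraries and 29.0, 28.1 and 36.2 CPM in WT libraries, a log2 fold change of -6.24 (SE 0.336, edgeR adjusted p = 9.34e-06). The megakaryocyte and platelet markers, given above, were lower in the same libraries, and their part in this difference was not tested. In KO libraries Ms4a3, Tyrobp, Ms4a6c and Fcgr3 were lowest in replicate 4, the library with the lowest sum of mast cell and basophil markers, while Cebpa, Spi1, Mpo and Csf2rb were highest there. Over the KO libraries Tyrobp, Ms4a6c and Fcgr3 had the same order as these sums, highest in replicate 3, then 1, 2 and 4. The sums were 1233, 1225, 514.7 and 341.4 CPM in that order. Ms4a3 departed from it only by a near tie, 22.5 CPM in KO replicate 1 and 22.8 CPM in replicate 2. In WT replicate 1, which had the highest WT sum, Ms4a6c was lowest of the WT libraries and Tyrobp and Fcgr3 were highest. The part of these cells in the differences was not tested. In the 2 libraries of each group with the lower sums (KO replicates 2 and 4, WT replicates 2 and 3, a choice made after seeing the data), the log2 fold changes were 2.76 for Plac8 (edgeR adjusted p = 0.00498), 3.83 for Mpo (adjusted p = 0.00399), 2.64 for Cebpa (adjusted p = 0.351), 1.46 for Ms4a3 (adjusted p = 0.324), 1.73 for Tyrobp (adjusted p = 0.107), 0.77 for Ms4a6c (adjusted p = 0.474) and 0.63 for Spi1 (adjusted p = 0.447). The sums still differed between these groups, at 514.7 and 341.4 CPM in KO and 12.8 and 13.5 CPM in WT. This choice therefore does not test the part of these cells.

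**Figure D3:**
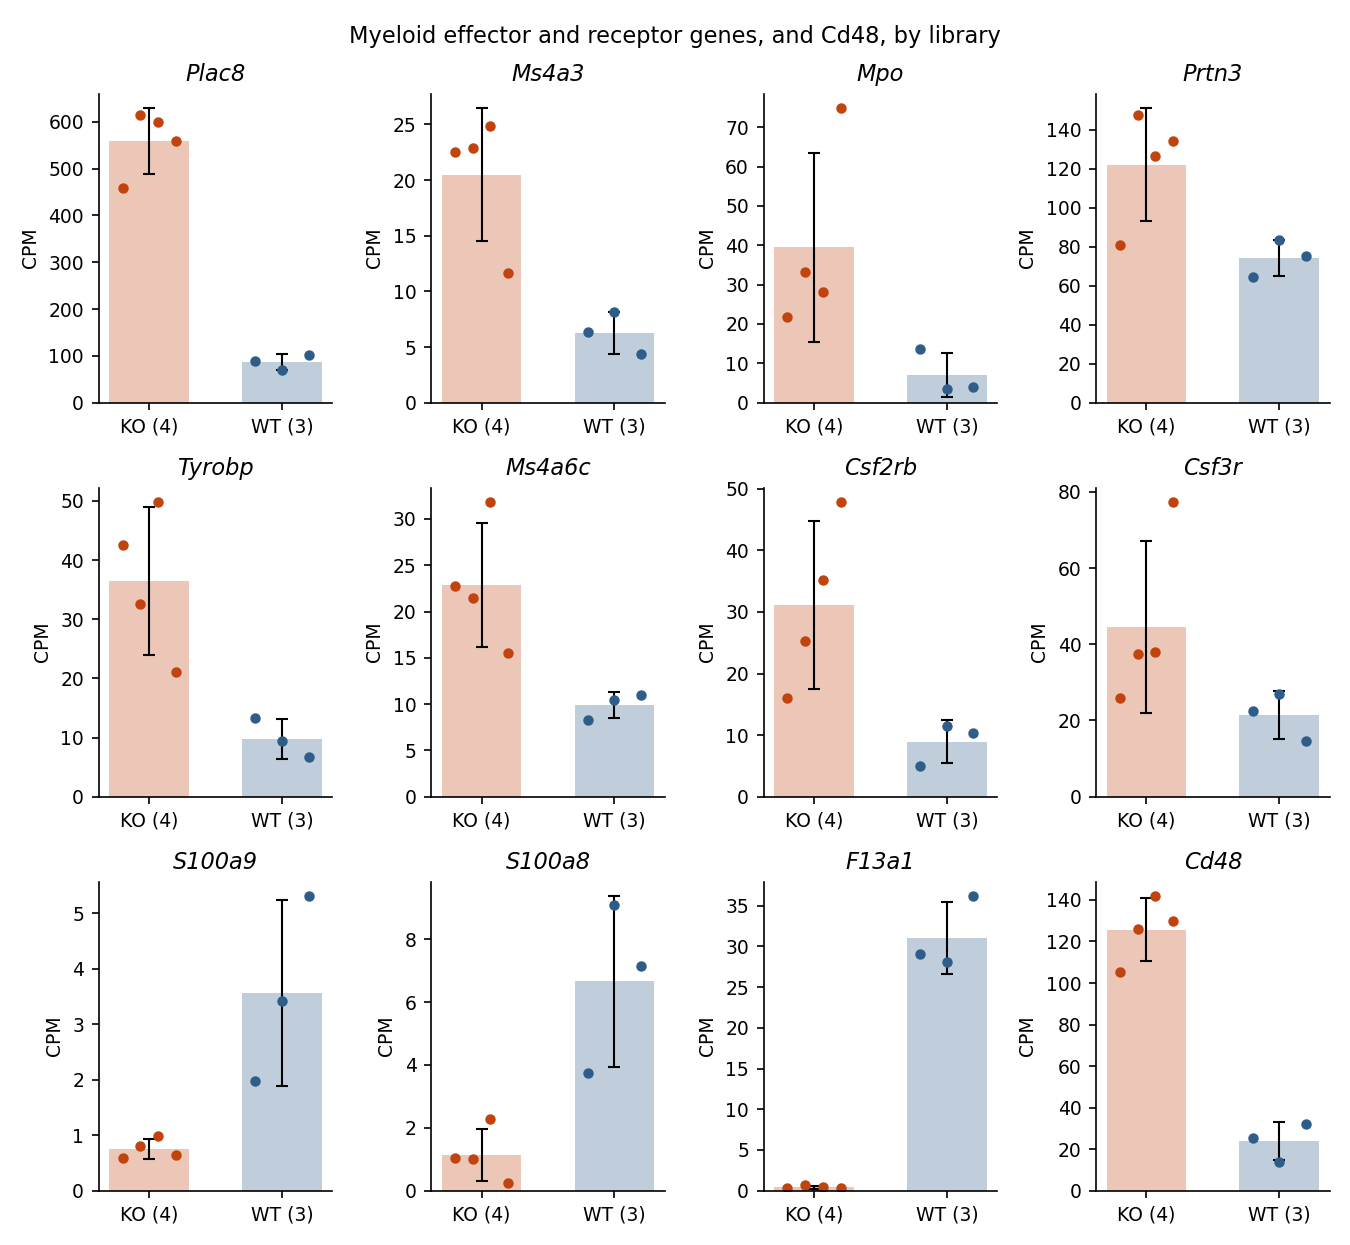
Levels in CPM (linear axes from 0) of 11 effector and receptor genes and Cd48, with the 4 KO libraries left and the 3 WT libraries right. Points are libraries, bars group means and error bars the SD. Plac8 lies at 458.4 to 614.8 CPM in KO libraries and 69.9 to 102.6 CPM in WT libraries, and F13a1 under 1 CPM in all KO libraries.

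Spi1, Zeb2 and Cebpb, which make up most of the factor RNA per length, had log2 fold changes of 0.44, 0.08 and -0.14, all with 95% intervals inside -0.55 to 0.87. Factors and effector genes were not tested against each other. Over all 41 tested effector genes the median was 0.41, close to the value of Spi1. Of the 4 that rose, Ms4a6c had a 95% interval of 0.61 to 1.80, which overlapped that of Spi1. The intervals of Plac8 (2.25 to 3.12), Ms4a3 (0.98 to 2.43) and Tyrobp (1.15 to 2.64) lay above that of Spi1. Those of F13a1 and S100a9, which fell, lay below it. These effector genes were picked because they passed, so their intervals had to lie away from 0. Setting them beside Spi1 therefore does not test effector genes against factors. Cebpa, at 2.44, rested on 29 WT reads in all. Intervals for Irf8, Cebpd and Gfi1 each spanned more than 2 log2 units, so these data set only wide limits on them.

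**Figure D4:**
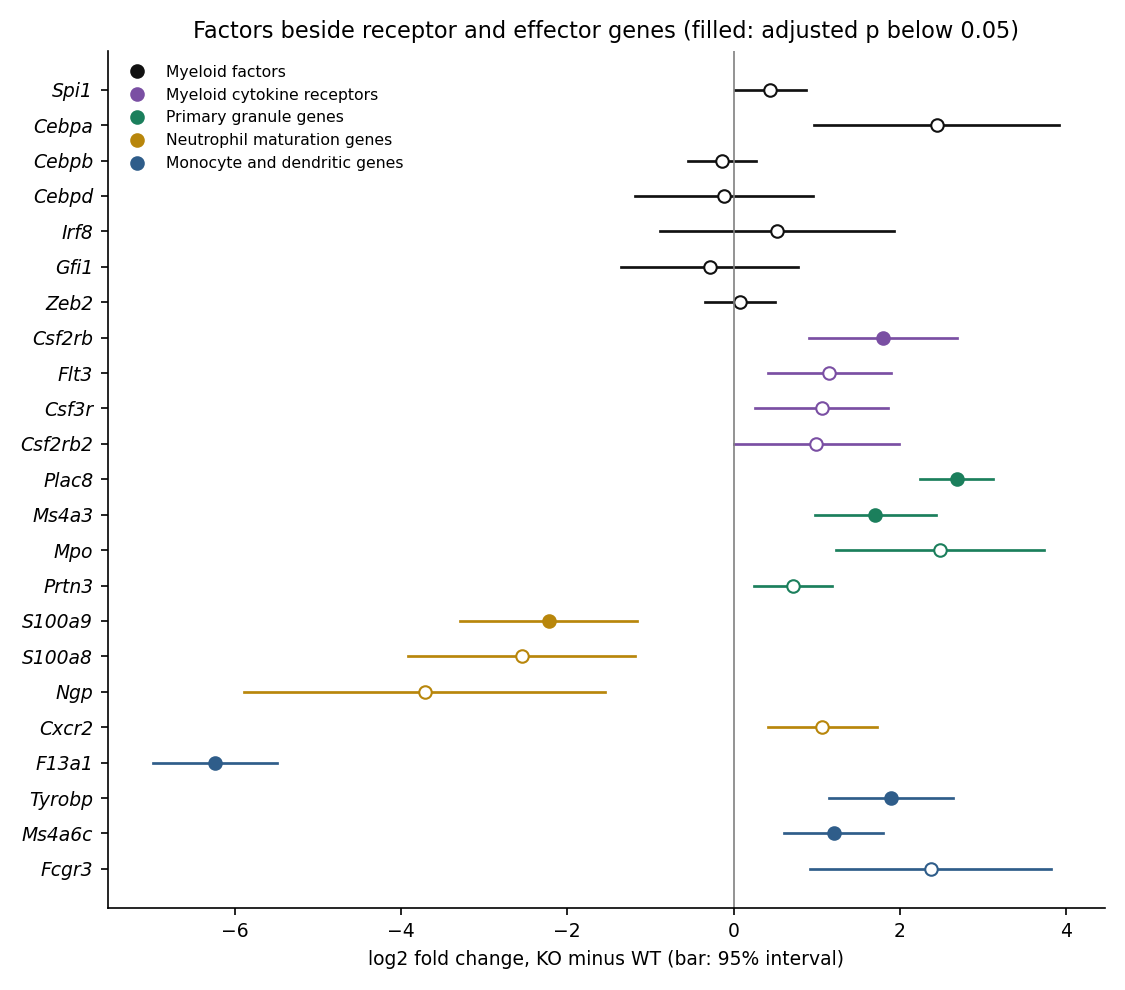
Log2 fold change (KO minus WT) with its 95% interval for the 7 tested factors, 4 cytokine receptors and 12 effector genes, in rows coloured by list. Filled circles mark an edgeR adjusted p below 0.05. No factor is filled, Cebpa lies at 2.44, and the effectors run from -6.24 for F13a1 to 2.68 for Plac8.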

How the data were processed

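Libraries of sorted marrow LT-HSC were made with the SMART-Seq v4 kit, which does not mark strand. The submitters' processing notes name cutadapt, Salmon 0.11.2 and the mm10 build; which transcripts were indexed is not stated. The authors deposited estimated counts, TPM and effective lengths per transcript. Transcript names without version were joined to GENCODE M21 (GRCm38): 111787 of 112092 matched, and the rest held 0.0836 to 0.123% of reads. Estimated counts were summed to 34932 genes and rounded; the deposited TPM values were summed likewise.

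Tests used edgeR 4.0.16 in R 4.3.3 (TMM scaling, filterByExpr, quasi-likelihood, Benjamini-Hochberg adjusted p below 0.05 over 14695 genes) and were tested on simulated data. Log2 fold changes are KO minus WT, and CPM uses TMM library sizes. Alternatives used limma 3.58.1 and DESeq2 1.42.0; scipy 1.17.1 gave exact permutation tests. The members and lists were chosen with earlier results of these data known. Named were the 8 factors, up to 4 tested genes of smallest p per list, and 1 gene of nearest profile per factor. A gene that this rule names is not reported here. Read intervals cover counting error only. The main test did not use the replicate numbers to pair libraries. Deviations of same-numbered libraries correlated at -0.0525, -0.120 and -0.0392, which cannot show whether any were prepared together. Protein sequences were not used here.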

Additional observations from a re-analysis of the deposited data

Results flagged for a closer look

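Of 48 quantities examined in the KO libraries, 3 had 1 library far from the other 3 by Dixon's criterion. B4galt1 was 19.3 CPM in KO replicate 1 and 14.6 to 14.9 CPM in the other KO libraries. Irf7 was 32.3 CPM in KO replicate 3 and 19.4 to 20.3 CPM in the others. Egr1 was 101.1 CPM in KO replicate 4 and 16.7 to 29.1 CPM in the others. None of the 8 factors was among them. Chance alone flags about 5% of groups, so a number of this size is near what it gives. The 3 WT libraries were too few to examine in this way.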

How the results depend on the processing

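Over 18 alternatives and 46 named genes, 725 log2 fold changes kept direction and side of the threshold, 42 newly passed, 40 no longer passed and 20 changed sign. Against 88 genes higher and 244 lower over all genes, DESeq2 gave 352 and 514 (1 factor, and 9 effector genes higher and 5 lower) and limma voom 269 and 439 (1 factor, 7 and 5). The length offset gave 213 higher, the replicate block 58 higher with 1 effector gene lower, the 5 libraries with high Y-linked expression 1 effector gene lower, and the 4 libraries chosen after seeing the data 20 higher, 105 lower, and 2 effector genes higher and 1 lower. Leaving out 1 library gave 30 to 130 higher (38 without KO replicate 2, 30 without KO replicate 3, and 39, 37 and 45 without WT replicates 1, 2 and 3), 157 to 279 lower (157 without KO replicate 2), 0 factors, 1 to 6 effector genes higher and 1 to 3 lower. The cause was not tested. The replicate block changed no call of a factor. Sign changes were all in log2 fold changes that did not pass: Cebpd 0.17 with limma voom and -0.40 to 0.32 with 1 library left out; Rab14 0.10 with the length offset; Suox -0.24 with the replicate block, -0.36 in the 5 libraries and -0.15 to 0.55 with 1 left out; Irf8 -0.06, Zeb2 -0.065, Egr1 -0.06 and Apc -0.01 in the 5 libraries; Zeb2 -0.08 and Apc -0.14 in the 4 libraries; and Zeb2 -0.062 to 0.277 and Apc -0.033 to 0.232 with 1 left out. Depth limits Cebpe, with 0 to 11 reads a library, and Cebpa in WT libraries, with 4 to 16 reads.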
